A study of Homo sapiens with 8 samples.

Results

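Amino acid transporters were examined in the human prostate cancer cell line C4-2, a castration-resistant subline of LNCaP. The set consists of 10 named genes (SLC1A4, SLC1A5, SLC6A9, SLC7A1, SLC7A5, SLC7A11, SLC3A2, SLC38A1, SLC38A2 and SLC43A1), and all 10 had a row among the 18892 genes of the RNA table. PolyA RNA was compared between 2 libraries of cells with a control short hairpin RNA (shCTRL) and 2 in which a hairpin was directed at CDCA8 (shCDCA8), which encodes a subunit of the chromosomal passenger complex. Both groups were C4-2 cells grown in RPMI medium with serum and no further treatment. The titles name a single label for the hairpin against CDCA8 and no rescue, so effects of that hairpin outside CDCA8 and loss of CDCA8 cannot be told apart. Small RNA libraries of the same series hold no row for these genes and were not used.

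Amino acids are too polar to pass freely through the plasma membrane and cross it through carrier proteins. Some carriers use the sodium gradient to concentrate neutral amino acids such as glutamine, alanine and serine in the cell, and others exchange amino acids across the membrane, so that glutamine that has been taken up can pay for the entry of leucine or other essential amino acids. Several genes of both kinds are known targets of ATF4, the transcription factor that is made when amino acids run short, and of MYC. Prostate cancer cells are known for high levels of the glutamine carrier SLC1A5 and of the leucine carriers SLC7A5 and SLC43A1.

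Values are RPM, reads in a gene scaled to a divisor of 46709612 to 55289855 reads, inferred from each library's smallest value above 0. The labels do not say what this divisor counts. The gene rows held 41.1% and 43.6% of it in shCTRL and 33.3% and 34.2% in shCDCA8, so the share was lower in both shCDCA8 libraries. RPM is not adjusted for gene length, so levels are compared between libraries and not between genes. The hairpin's target, CDCA8, measured 14.2 and 16.5 RPM under the control hairpin and 3.98 and 3.94 RPM under its own. Of the 9 luminal prostate markers all were measured, KLK3 among them at 1454 and 1477 RPM in the controls and at 364 and 438 RPM after knockdown. A change was called where the limma p on log2(RPM + 1), adjusted by Benjamini-Hochberg over the 11833 genes that reached 1 RPM in 2 or more libraries (the kept genes), was under 0.05, and a log2 fold change below is shCDCA8 minus shCTRL on that scale, with its standard error (SE, n = 2 against 2). The median of all kept genes was itself at -0.27, and for that reason values are also given after median-ratio scaling, which divides each library by its median ratio to the mean library.

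Short stretches of the members' promoters are shown here because 9 of the 10 genes fell. RefSeq windows (GRCh38.p14), from 250 bases before to 50 bases after a transcription start, were found for 9 of the 10 genes, 16 windows in all. SLC7A11 had no window. They were searched on both strands for TGATGNAA (TTNCATCA on the opposite strand), the core of the element bound by ATF4 with C/EBP partners, and for the E-box CACGTG, the element of MYC and related factors, which reads the same on both strands. In the sequences below, written 5′ to 3′ on the gene's strand, capitals mark the match.
SLC1A4, chr2:64989381-64989410, plus strand: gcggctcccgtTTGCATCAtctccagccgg
SLC1A5, chr19:46784893-46784922, minus strand: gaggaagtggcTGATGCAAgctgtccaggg
SLC7A1, chr13:29595663-29595692, minus strand: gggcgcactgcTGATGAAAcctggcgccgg
SLC3A2, chr11:62881725-62881748, plus strand: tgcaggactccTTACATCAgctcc
SLC38A1, chr12:46266502-46266531, minus strand: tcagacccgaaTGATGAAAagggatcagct
SLC1A5 (E-box), chr19:46787326-46787355, minus strand: ggcgggagtggtCACGTGgacaggacgggg
SLC7A5 (E-box), chr16:87869620-87869649, minus strand: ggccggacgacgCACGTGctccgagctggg
SLC43A1 (E-box), chr11:57515797-57515826, minus strand: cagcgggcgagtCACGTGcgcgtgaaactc

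TGATGNAA was present in 5 of the 16 member windows (31.2%), 1 in each of SLC1A4, SLC1A5, SLC7A1, SLC3A2 and SLC38A1, and in 3.62% of all 35116 windows of that length. In SLC1A4 it began 7 bases and in SLC38A1 4 bases before a start, in SLC1A5 97 bases before the start of an alternative transcript, and in SLC7A1 and SLC3A2 at base 8 and base 38 of a transcript. The E-box was present in 3 of the 16 windows (18.8%) and in 7.26% of all windows. Windows of 1 gene stand for alternative starts, and which start these cells use was not measured. No match was found in the windows of SLC6A9 or SLC38A2, which says only that these letters are not there. These counts describe the sequences and no test was made of them. Several genes of these kinds are known targets of ATF4 or MYC, and the members were chosen with earlier results known. The member shares are therefore not independent of that choice.

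After CDCA8 knockdown 9 of the 10 genes fell and 0 rose by limma (0 also at an unadjusted p under 0.05, 0 by edgeR and 1, SLC38A2, by DESeq2). Of all kept genes 47.6% fell and 18.8% rose. The median log2 fold change of the 10 was -2.65. The members' reads together stood at 1358 and 1478 RPM in shCTRL and at 373 and 438 RPM in shCDCA8. Both shCDCA8 libraries lay below both shCTRL libraries for 9 of the 10 genes, as they did for 56.8% of all kept genes. A fall of at least 3 on the log2 scale was seen for 5 members and for 17 of all kept genes (0.144%). A fall of at least 2 was seen for 6 members and for 173 of all kept genes (1.46%). With 1 RPM added, kept genes with low control levels cannot fall that far, so these shares are not like for like. The members were chosen with earlier results of these data known. After median-ratio scaling 8 members fell (33.6% of all kept genes) and 1 rose (33.2%), with a member median of -2.35. SLC1A4 passed the filter on low values through the controls only, so it had to be lower and adds nothing to these counts of falls. In bulk RNA, fewer cells with a transcript and less of it in each cell cannot be told apart. The plot of RPM by library shows each member's 4 values.

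**Figure D1:**
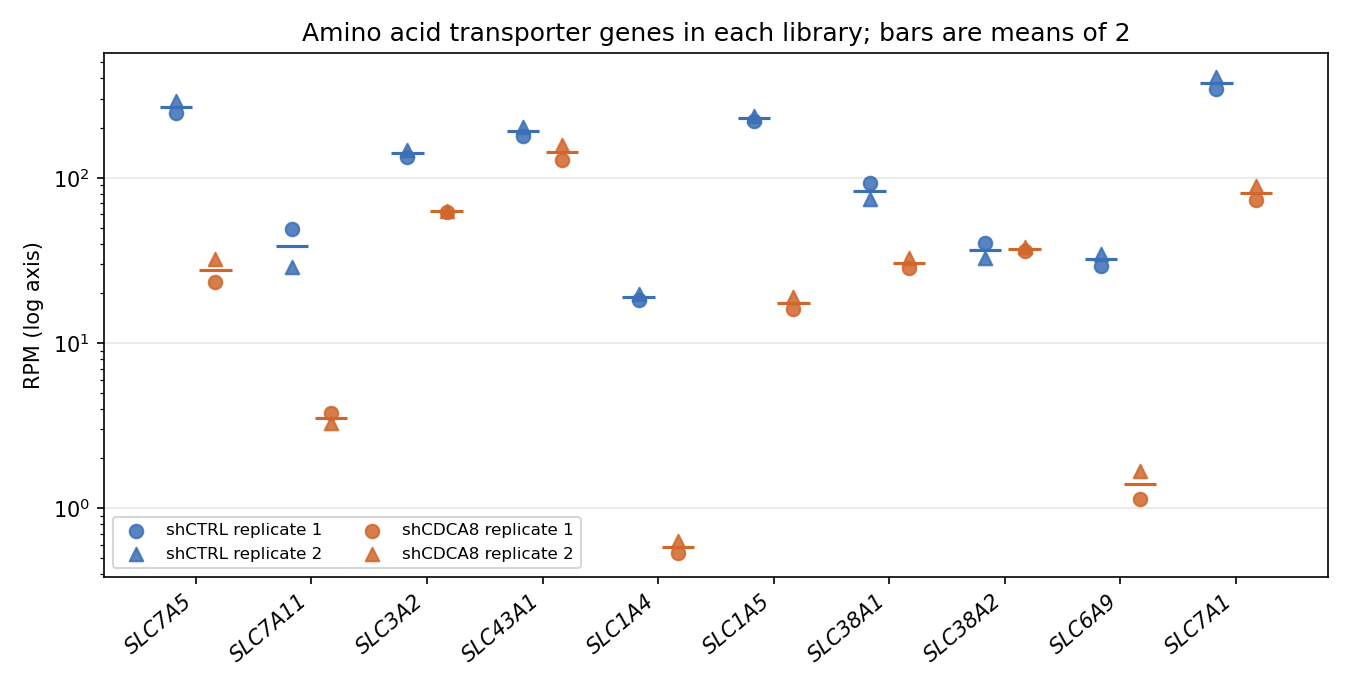
RPM (log axis) of the 10 transporter genes in the 2 shCTRL (blue) and 2 shCDCA8 (orange) libraries, with circles for replicate 1, triangles for replicate 2 and bars for the mean of 2. The groups are apart for every gene except SLC38A2, and SLC1A4 has the lowest shCDCA8 values, 0.536 and 0.633 RPM.

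The sodium-dependent exchangers of neutral amino acids, SLC1A4 and SLC1A5, were among the genes with the deepest falls. SLC1A5 (ASCT2) brings glutamine into the cell in exchange for other neutral amino acids. It stood at 222 and 237 RPM in shCTRL and at 16.0 and 18.9 RPM in shCDCA8. Both knockdown libraries were thus far under both controls, and the mean after knockdown was 7.60% of the control mean. The log2 fold change was -3.65 ± 0.110 (adjusted p = 1.23e-09), the seventh lowest of all kept genes.

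SLC1A4 (ASCT1), its close relative, carries alanine, serine and cysteine. It went from 18.1 and 19.8 RPM to 0.536 and 0.633 RPM, or from 965 and 927 reads to 28 and 35. The groups did not overlap, and the mean after knockdown was 3.08% of that in the controls (log2 fold change -3.66 ± 0.135, adjusted p = 3.79e-09). SLC1A4 passed the filter on low values through the controls only. The added 1 RPM understates the change of a gene this low. edgeR on the recovered reads, which adds less, gave -4.71 for SLC1A4 and -3.41 for SLC1A5. The log2 ratio of SLC1A5 over SLC1A4 within a library was 3.54 and 3.51 in shCTRL and 3.47 and 3.61 in shCDCA8 on the RPM + 1 scale, a change of 0.01 (exact permutation test, p = 1, n = 2 against 2), and without the added 1 RPM it rose by 1.30. Without shCTRL replicate 2, or without shCDCA8 replicate 2, the change on the RPM + 1 scale was below 0 (-0.0077 and -0.0622). In shCDCA8 SLC1A4 lay under the added 1 RPM. The ratio on the RPM + 1 scale therefore cannot show whether SLC1A5 and SLC1A4 fell alike.

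SLC6A9 (GLYT1) takes up glycine with sodium and chloride, and on the RPM + 1 scale it had the lowest log2 fold change of the 10. SLC1A4 was lower than SLC6A9 by edgeR (-4.71 against -4.20) and as a percent of the control mean. SLC6A9 stood at 29.4 and 34.7 RPM in the controls and at 1.13 and 1.68 RPM after knockdown, the latter from 59 and 93 reads. Every knockdown value was far under every control value. The mean after knockdown was 4.39% of the control mean (-3.79 ± 0.153, adjusted p = 6.75e-09), and 2 of all kept genes ranked lower on the RPM + 1 scale. In RefSeq gene order SLC6A9 overlaps CCDC24, which went from 11.4 ± 0.541 to 7.61 ± 0.537 RPM (SD, n = 2), and the labels do not say whether counting used strand.

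The heterodimeric exchangers are made of a light chain that carries the amino acid and the heavy chain SLC3A2 (CD98), a glycoprotein that brings it to the membrane. SLC7A5 (LAT1) is the light chain that brings in leucine and other large neutral amino acids in exchange for glutamine. It stood at 249 and 291 RPM in shCTRL and at 23.4 and 32.0 RPM in shCDCA8, a mean of 10.3% of the control (-3.25 ± 0.138, adjusted p = 9.51e-09). Both knockdown values were thus well under the controls. Reads of SLC7A5 can be shared with its pseudogenes SLC7A5P1 and SLC7A5P2, of which the more abundant, SLC7A5P2, held 0.555 to 1.05 RPM.

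SLC7A11 (xCT) is the light chain that imports cystine, the precursor of glutathione, in exchange for glutamate. It stood at 48.7 and 28.7 RPM in shCTRL and at 3.79 and 3.27 RPM in shCDCA8. As a ratio the control libraries differed more from each other for this gene than for any other member, and both were far above the knockdown libraries (-3.08 ± 0.199, adjusted p = 1.86e-07). Its antisense gene, SLC7A11-AS1, had at most 12 reads in a library.

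SLC3A2, the shared heavy chain, changed less than either light chain. It stood at 134 and 148 RPM in shCTRL and at 62.4 and 62.7 RPM in shCDCA8, with no overlap and a mean of 44.4% of the control (-1.16 ± 0.0977, adjusted p = 1.31e-06). Apart from the added 1 RPM, the ratio of light to heavy chain within a library does not depend on the divisor of that library. For SLC7A5 over SLC3A2 its log2 value was 0.88 and 0.97 in shCTRL and -1.38 and -0.95 in shCDCA8, a change of -2.09. For SLC7A11 over SLC3A2 it was -1.45 and -2.32 in shCTRL and -3.73 and -3.90 in shCDCA8, a change of -1.93, or -2.24 without the added 1 RPM. The groups did not overlap for either ratio, and the exact two-sided permutation test gave p = 0.333 for each, the smallest value that 2 libraries against 2 allow.

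The light chains did not part from each other beyond the spread between libraries. SLC7A11 over SLC7A5 had log2 ratios of -2.33 and -3.30 in shCTRL and of -2.35 and -2.95 in shCDCA8, so that the groups overlapped (change 0.16, exact permutation p = 1). The sign of that change was opposite without shCTRL replicate 2 (-0.32), without shCDCA8 replicate 1 (-0.14) and without the added 1 RPM (-0.11).

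**Figure D2:**
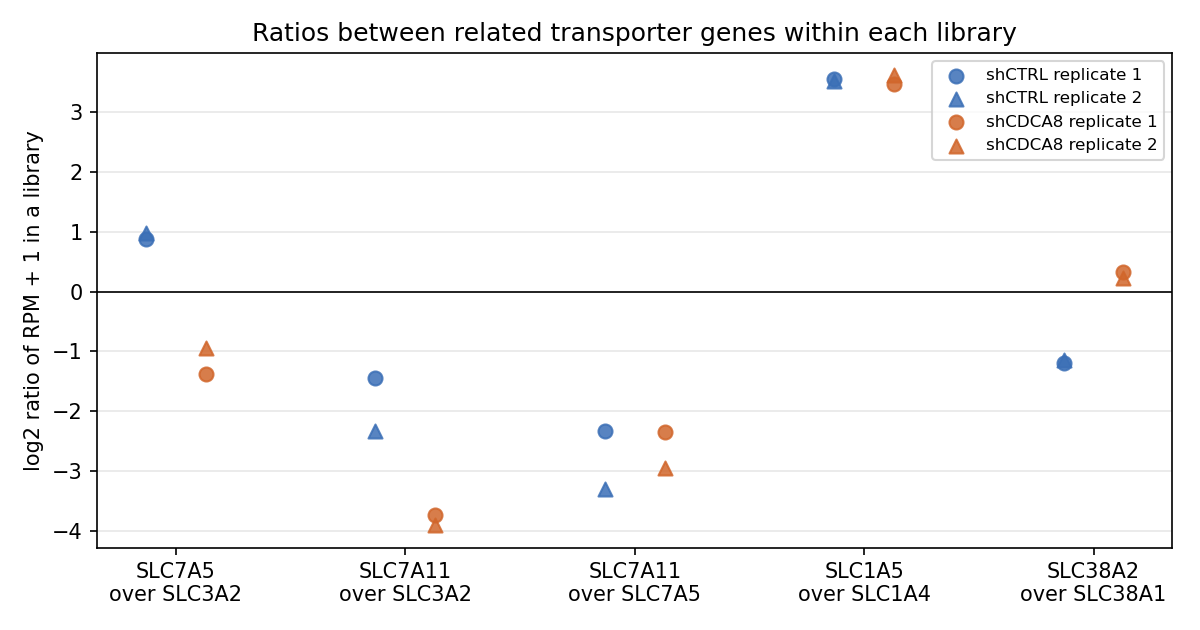
Log2 ratio of RPM + 1 between related transporter genes within each library, with shCTRL in blue, shCDCA8 in orange, circles for replicate 1 and triangles for replicate 2. Both ratios to the heavy chain SLC3A2 are lower in shCDCA8, SLC38A2 over SLC38A1 is higher, and the groups overlap for the other pairs. For SLC1A5 over SLC1A4 this holds on the RPM + 1 scale, with SLC1A4 in shCDCA8 under the added 1 RPM.

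SLC7A1 (CAT1), the uniporter of arginine, lysine and ornithine, had a fall smaller than those of SLC1A5, SLC6A9 and SLC7A5, a difference that was not tested. It had 346 and 409 RPM in the controls and 73.1 and 88.9 RPM after knockdown. All knockdown values were under all control values, and the mean was 21.5% of the control (-2.21 ± 0.116, adjusted p = 4.55e-08).

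The related system A genes SLC38A1 and SLC38A2 were not alike in their values. Both carriers bring in glutamine and other small neutral amino acids with sodium. SLC38A1 (SNAT1) went from 92.6 and 74.2 RPM to 28.6 and 32.6 RPM, with no overlap (-1.41 ± 0.126, adjusted p = 1.94e-06). SLC38A2 (SNAT2), known as the system A carrier induced by amino acid shortage, stood at 40.1 and 32.9 RPM in shCTRL and at 36.1 and 38.3 RPM in shCDCA8. Both knockdown values lay between the control values, and SLC38A2 was not called (0.03 ± 0.120, adjusted p = 0.828).

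Under median-ratio scaling SLC38A2 rose by 0.34 (adjusted p = 0.0352), and its adjusted p ranged from 0.034 to 0.965 across all settings. Without shCTRL replicate 2 it stood at -0.11 and without shCDCA8 replicate 2 at -0.01. The log2 ratio of SLC38A2 over SLC38A1 within a library was -1.19 and -1.15 in shCTRL and 0.33 and 0.22 in shCDCA8, which is a change of 1.44 with no overlap (exact permutation p = 0.333, the smallest possible). Apart from the added 1 RPM, this ratio does not depend on the divisor of the library.

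SLC43A1 (LAT3), a sodium-independent carrier of leucine and other branched-chain amino acids that is abundant in the prostate, had the smallest of the 9 falls. It stood at 179 and 203 RPM in shCTRL and at 128 and 159 RPM in shCDCA8, without overlap and with a mean of 75.0% of the control (-0.42 ± 0.116, adjusted p = 0.00702). Relative to the median of all kept genes this was -0.15. Under median-ratio scaling SLC43A1 was not called (-0.11, adjusted p = 0.345, with 1.34e-05 to 0.45 across all settings), nor was it without shCDCA8 replicate 1 (-0.26, adjusted p = 0.0775).

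**Figure D3:**
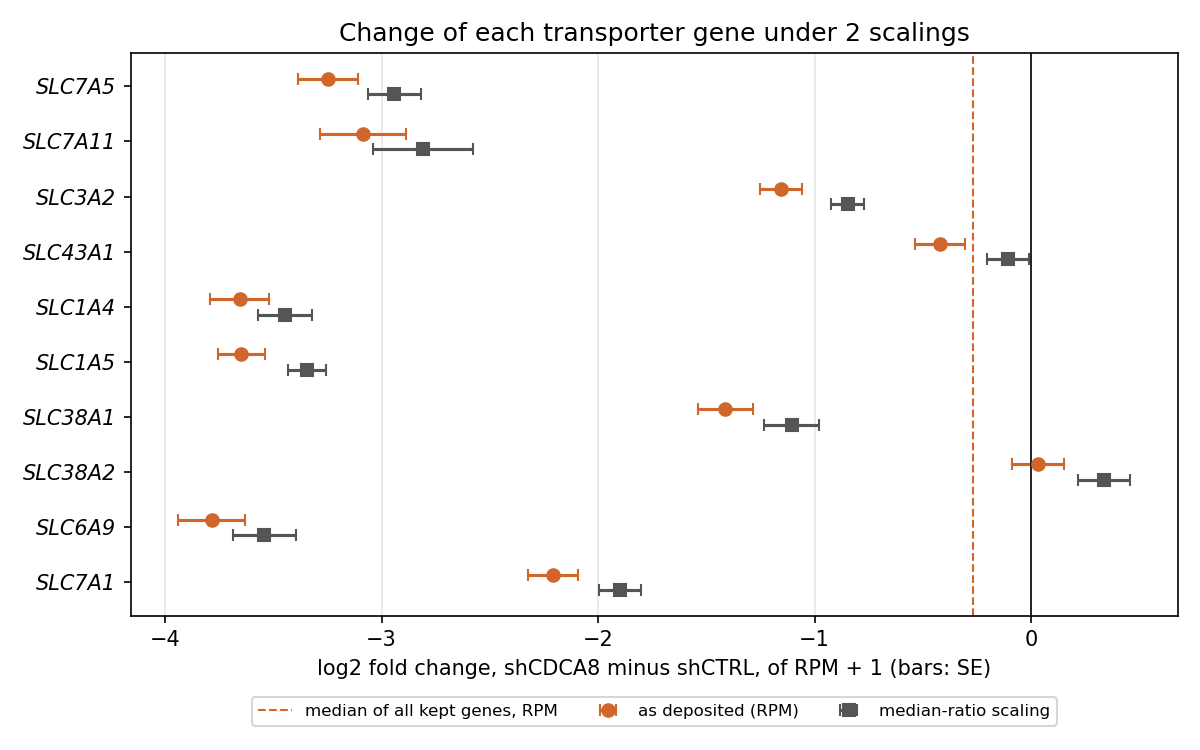
Log2 fold change (shCDCA8 minus shCTRL, of RPM + 1, with bars for the SE) of the 10 transporter genes as deposited (orange circles) and after median-ratio scaling (grey squares), with the median of all kept genes at -0.27 as a dashed line. SLC1A4, SLC1A5, SLC6A9, SLC7A5 and SLC7A11 lie below -3 as deposited, and SLC43A1 and SLC38A2 lie nearest 0.

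Most of the other carriers of amino acids that could be tested were lower too. Of 59 further transporter genes 49 had a row and 28 passed the filter on low values, of which 21 fell and 3 rose (median -0.67), against 47.6% and 18.8% of all kept genes. After median-ratio scaling 17 fell and 5 rose (median -0.38), against 33.6% and 33.2%. SLC6A20 and SLC38A3 passed the filter through the controls only, so they had to be lower and add nothing to these counts of falls. The 3 that rose were SLC38A9, SLC17A5 and SFXN1, the last 2 named after their values were seen. Without shCDCA8 replicate 2 the rises numbered 1.

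At the plasma membrane 9 of 32 genes were kept, 6 of them fell and 0 rose by limma (0 at an unadjusted p under 0.05, 2 by edgeR and 2 by DESeq2). Of all kept genes 47.6% fell and 18.8% rose by limma. After median-ratio scaling 5 of the 9 fell and 2 rose, against 33.6% and 33.2% of all kept genes. SLC7A8 (LAT2), the other SLC3A2 partner for large neutral amino acids, fell from 123 and 143 RPM to 15.8 and 19.4 RPM (-2.85, adjusted p = 1.12e-08). Both knockdown values were far under both controls. SLC7A2, a cationic amino acid carrier related to SLC7A1, fell from 5.29 and 4.30 RPM to 1.49 and 1.79 RPM (-1.13). The proline carrier SLC6A20 (-0.95) and the glutamine carrier SLC38A3 (-0.88) fell from control levels of 1.05 to 1.52 RPM to 17.9% and 13.3% of the control means, a change that the added 1 RPM understates (edgeR -2.17 and -2.59). Both passed the filter on low values through the controls only, so that they had to be lower and their falls add nothing to the count of 6.

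In lysosomes and vesicles 9 of 15 genes were kept, of which 6 fell and 2 rose, against 47.6% and 18.8% of all kept genes. After median-ratio scaling 4 fell, 2 rose and 3 were not called, against 33.6% lower and 33.2% higher among all kept genes. MFSD12, which carries cysteine into lysosomes and melanosomes, fell by 1.54 on the log2 scale, SLC36A1, a proton-coupled exporter of small amino acids, by 1.28 and SLC15A4, a carrier of histidine and peptides, by 0.99. SLC38A9, the lysosomal arginine sensor that signals to mTORC1, stood at 6.30 and 5.25 RPM in shCTRL and at 10.6 and 9.82 RPM in shCDCA8. Both knockdown values were higher (0.73, adjusted p = 0.000596).

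Among mitochondrial carriers 10 of 12 genes were kept, of which 9 fell and 1 rose, against 47.6% and 18.8% of all kept genes. After median-ratio scaling 8 fell, 1 rose and 1 was not called, against 33.6% lower and 33.2% higher. SFXN2, of the sideroflexin family, fell from 38.5 ± 3.55 to 9.10 ± 1.56 RPM (SD, n = 2). The basic amino acid carrier SLC25A29 (-1.65), the glutamate carrier SLC25A22 (-1.53) and the ornithine carrier SLC25A15 (-0.83) fell as well. SFXN1, the mitochondrial serine carrier, rose from 51.9 and 54.8 RPM to 66.2 and 66.1 RPM.

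Genes that regulate the transporters, or use what they carry, were counted next. Of 17 amino acid response regulators, all kept, 12 fell and 1 rose (median -0.80), against 47.6% and 18.8% of all kept genes. After median-ratio scaling 11 fell and 3 rose, against 33.6% and 33.2%. ATF4 itself stood at 662 and 677 RPM in shCTRL and at 131 and 125 RPM in shCDCA8 (-2.38, adjusted p = 3.21e-09). DDIT4 (-2.34), an inhibitor of mTORC1 signalling, and the pseudokinase TRIB3 (-2.07) fell too, and SESN2, a leucine sensor of the same pathway, fell to 24.3% of its control mean. EIF2S1, the initiation factor subunit that the stress kinases phosphorylate, was the gene that rose (0.72), and is named after its value was seen.

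Of 20 enzymes that use the carried amino acids 17 were kept, of which 14 fell and 0 rose by limma (median -0.87). Of all kept genes 47.6% fell and 18.8% rose. Rises also numbered 0 by edgeR, by DESeq2 and at an unadjusted limma p under 0.05. After median-ratio scaling 12 fell and 0 rose (1 at an unadjusted p under 0.05), against 33.6% and 33.2%. CHAC1, which degrades glutathione, went from 45.4 and 44.8 RPM to 2.97 and 2.08 RPM (-3.72). Asparagine synthetase ASNS fell by 2.88, the mitochondrial arginase ARG2 by 2.46 on the log2 scale. SHMT2, which interconverts serine and glycine in mitochondria, fell as well (-2.09). Both knockdown libraries lay below both controls for all 17 kept enzymes and for 56.8% of all kept genes.

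Of 10 other regulators of these transporters 9 were kept, 6 fell and 0 rose by limma (median -0.48), against 47.6% and 18.8% of all kept genes. Rises numbered 0 at an unadjusted p under 0.05, 1 by edgeR and 0 by DESeq2. After median-ratio scaling 4 of the 9 fell and 1 rose (median -0.17), against 33.6% and 33.2%. MYC went from 153 and 139 RPM to 55.0 and 59.3 RPM (-1.34), and KEAP1, the inhibitor of NRF2, fell as well (-0.95). Over these 3 lists together 32 of 43 kept genes fell and 1 rose, against 47.6% and 18.8% of all kept genes, and after median-ratio scaling 27 fell and 4 rose, against 33.6% and 33.2%. Without shCTRL replicate 2, or without shCDCA8 replicate 1, the rises numbered 2.

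**Figure D4:**
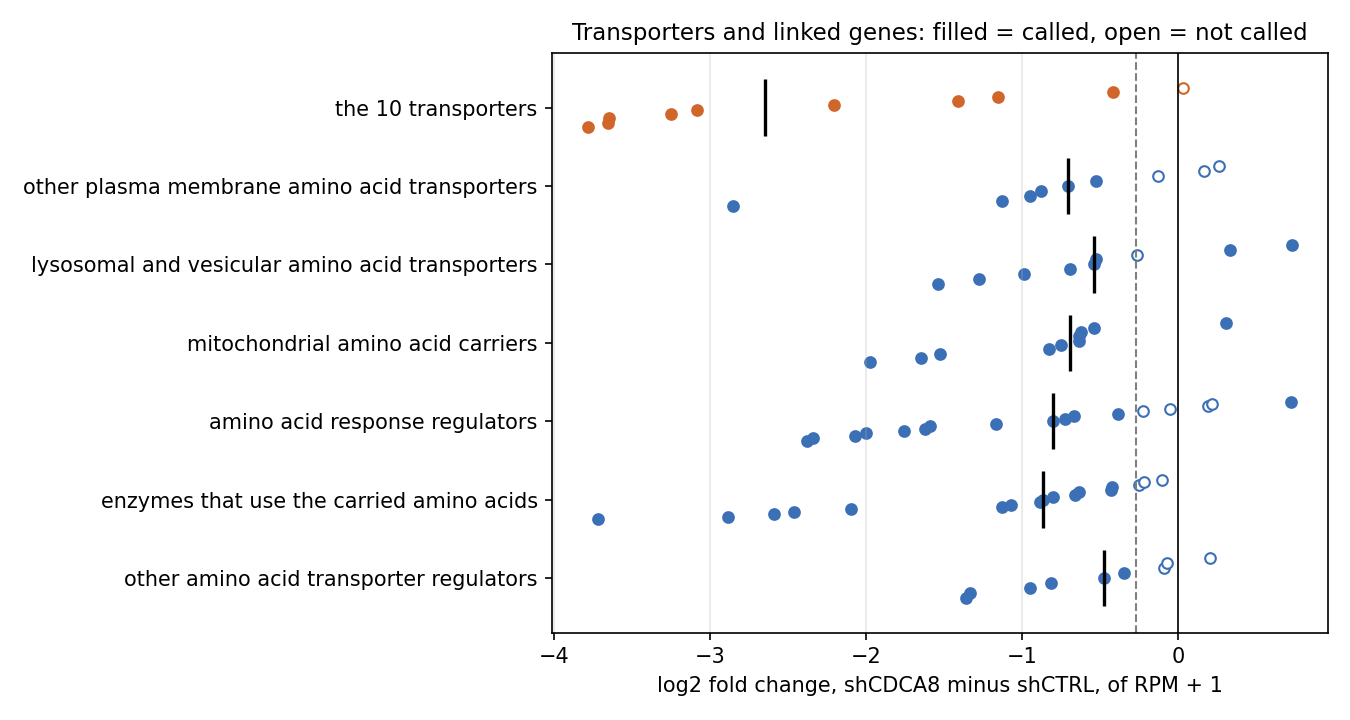
Log2 fold change (shCDCA8 minus shCTRL, of RPM + 1) of each kept gene in the 10 transporters (orange) and in 6 lists of other carriers and linked genes (blue), filled where called and open where not, with a black bar for the median of a list and a dashed line for all kept genes. The 10 transporters have a median of -2.65 and the 6 lists have medians between -0.87 and -0.48.

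By profile over the 4 libraries, the genes outside every list nearest the median profile of the 10 transporters were LPAR3, CDC42EP1, EHD3, SPON2 and CHPF, chosen among 8421 genes whose mean reached 5 RPM by the Euclidean distance of centred log2(RPM + 1). LPAR3, a receptor for lysophosphatidic acid, was nearest at a distance of 0.0528, with 29.7 and 29.0 RPM in the controls and 4.15 and 4.65 RPM after knockdown. CHPF, which acts in chondroitin synthesis, was the fifth at 0.154. Among the transporters themselves SLC7A1 was nearest that median (0.362) and SLC38A2 farthest (2.53). With 4 libraries in 2 groups this distance mostly reads the size of the change.

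Markers of other cell types were low. Of 6 fibroblast markers 1 was kept, COL1A1, which fell (-1.30), and the summed level of the 6 was 9.83 and 12.2 RPM in the controls and 3.85 and 4.30 RPM after knockdown, with PDGFRA at 0 in 3 libraries. Of 7 leukocyte and endothelial markers 2 were kept, of which VWF fell and CD68 rose, and the 5 with a row summed to 11.1 and 14.5 RPM against 10.2 and 11.8 RPM, with CD3E at 0 in 3 libraries. Of 4 basal markers KRT14 was kept and not called, with a sum over 2 rows of 2.03 to 2.61 RPM, and the 4 neuroendocrine markers summed to at most 1.46 RPM. Of the luminal markers 6 of 9 fell and 2 rose (median -1.16), against 47.6% and 18.8% of all kept genes, and after median-ratio scaling 5 fell and 3 rose, against 33.6% and 33.2%. The 2 that rose, KRT8 and KRT18, are named after their values were seen. KLK3 fell by 1.87, KLK2 by 1.58 and TMPRSS2 by 1.16 on the log2 scale. The part of any of these in the transporters' falls was not tested.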

How the data were processed

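PolyA RNA of 2 shCTRL and 2 shCDCA8 libraries of C4-2 cells was used. The deposited values are RPM, per the file headers and names, and the labels do not say what the divisor counts. Per the submitters' processing notes TopHat, HTSeq, edgeR and cutadapt and build hg19 were used, without versions or roles. All values above 0 (100%) were whole multiples of a step in their library (tolerance 0.01 of a read), which gave 17406425 to 21920570 reads in the gene rows.

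Values were tested as log2(RPM + 1) with limma 3.58.1 in R 4.3.3 (mean-variance trend, two-sided) over the 11833 genes that reached 1 RPM in 2 or more libraries. On the recovered reads edgeR 4.0.16, which called 7807 genes, and DESeq2 1.42.0 served as alternatives, beside other scalings, pseudocounts (0.1 and 5), filters, leaving out each library and a replicate block. The method was checked on simulated counts with no shift of the whole table, so that check does not cover such a shift. Replicates differed beyond sampling noise, with a chi-square over degrees of freedom of 9.70 and 11.6. Nothing says that they came from separate cultures, so p-values measure the spread between these libraries, which may be technical.

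The members, the lists and the rules were chosen with earlier results of these data known. In the text are all members, CDCA8, ATF4, MYC, the 4 called genes of each list with the smallest p and the 5 nearest profiles, of which some are not reported here. GCN1 and SLC66A1 were matched by older symbols.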

Additional observations from a re-analysis of the deposited data

How the results depend on the processing

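SLC1A4, SLC1A5, SLC6A9, SLC7A1, SLC7A5, SLC7A11, SLC3A2 and SLC38A1 stayed lower and called in all 15 alternatives, and the members called lower numbered 8 or 9. SLC43A1 lost its call in 6 alternatives, with median-ratio, row-sum and quantile scaling, with edgeR and DESeq2, and without shCDCA8 replicate 1. SLC38A2 was called higher with median-ratio scaling (0.34), row-sum scaling (0.35) and DESeq2 (0.33), so that 1 member was higher in those 3, and it ranged from -0.11 to 0.17 when each library was left out. All genes called higher numbered 3931 with median-ratio scaling, 3985 with row-sum scaling, 3980 with quantile normalization, 3851 with edgeR and 3639 with DESeq2, and those called lower 3721 with quantile normalization and 3575 with DESeq2. These settings remove the shift of the whole table. Other transporters called higher numbered 5 under each of these 5 settings, and 1 to 3 when a library was left out. Linked genes called higher numbered 4 with median-ratio scaling, row-sum scaling and edgeR, 3 with quantile normalization and DESeq2, and 1 to 2 when a library was left out. Without the added 1 RPM the change of the log2 ratio was 1.30 for SLC1A5 over SLC1A4 and -0.11 for SLC7A11 over SLC7A5, and with a library left out these ranged from -0.0622 to 0.0782 and from -0.32 to 0.65. In shCDCA8 SLC1A4 stood at 0.536 and 0.633 RPM, so the added 1 RPM understates its fall in the SLC1A5 over SLC1A4 ratio. The cause of the other changes was not tested.

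The labels do not say whether same-numbered libraries of the groups share anything beyond the number. Deviations of same-numbered libraries from their group means had a correlation of 0.312 over kept genes. In the fit with the replicate block 9 members were lower and 0 higher, 5 other transporters and 3 linked genes were higher, and in all 6189 genes were lower and 2712 higher. Depth limits SLC1A4 and SLC6A9, with 28 to 93 reads in a knockdown library.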

Other observations

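Solute carrier genes in none of the lists were counted after the values were seen. Of 282 such rows 174 were kept, of which 108 fell and 20 rose (median log2 fold change -0.53). Of all kept genes 47.6% fell and 18.8% rose. After median-ratio scaling 86 of the 174 fell and 39 rose (median -0.23), against 33.6% and 33.2% of all kept genes.

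The genes named here were chosen after their values were seen. Those under the filter on low values were left out of the counts above. The glutamate carriers SLC1A1 (0.675 and 0.514 RPM in shCTRL, 0.249 and 0.289 RPM in shCDCA8) and SLC1A3 (0.619 and 0.535 RPM, then 0.23 and 0.362 RPM) were the SLC1 relatives with the highest values among these, and both had the knockdown libraries below the controls. In the plasma membrane list the creatine carrier SLC6A8 (124 and 149 RPM, then 136 and 172 RPM) and the leucine carrier SLC43A2 (40.7 and 47.7 RPM, then 46.7 and 60.0 RPM), were not called, with groups that overlapped, and both were called higher after median-ratio scaling.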
